A study of Mus musculus with 21 samples.

Results

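The 37 genes described here encode the machinery that copies DNA and divides the cell, and they were chosen by symbol from a list of cell cycle, S phase and mitosis genes. Of these, 36 had a probe set annotated with their symbol alone and were tested among 13284 genes in all. They comprised 14 replication genes, 3 genes grouped here as G1 to S (Ccne1, Ccne2 and Chek1) and 19 mitosis genes. Ccnb1, which encodes cyclin B1, was not analysed here. Each gene was read from 1 probe set, the one with the highest mean signal among those that passed a filter on low signals.

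A cell that commits to division first loads the ring-shaped Mcm helicase onto its replication origins and then fires those origins with the help of Cdc45. Nucleotide enzymes such as ribonucleotide reductase feed the copying, and Pcna clamps the polymerases to the template. Mitosis follows under cyclin B and Cdk1, with spindle motors, kinetochore proteins and checkpoint kinases, and it ends when the anaphase-promoting complex destroys the cyclins. Most transcripts of the mitotic machinery are low in cells that are not cycling, and lymphocytes that have not met antigen are mostly in that state. Conventional dendritic cells (DCs) of the mouse spleen arise from precursors that still divide in the tissue.

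RNA of sorted mouse spleen cells had been hybridised to 21 Affymetrix arrays, in 7 groups of 3. DCs sorted with the 33D1 antibody and DCs sorted with the DEC205 antibody each came from C57BL/6 mice injected with an Flt3L melanoma, pooled from 20 mice per array and killed on days 10 to 12, and from wild-type (WT) C57BL/6 mice, pooled from 40 to 80 mice per array. Flt3L is the growth factor that expands DCs, and here it came together with a tumour, so that their parts cannot be told apart. The lymphocyte groups (B cells, CD8 T cells, CD4 T cells) were pools of 5 to 8 WT mice. The sources used here give no ages, sort gates or array batches. Nothing in them says that the pools of a group were independent, so a p-value measures only how the pools spread, in part perhaps for technical reasons. In such bulk RNA, fewer cycling cells and less RNA per cell cannot be told apart.

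Lineage transcripts matched the sample titles on all 21 arrays, although the description field of the lymphocyte samples calls them DCs. The summed signal of 4 T cell markers was at most 279.3 on any DC array, against at least 44501 on the CD4 T cell arrays, and that of 4 B cell markers was at most 2633 on any DC array, against at least 82898 on the B cell arrays. A few arrays stood apart. The third DEC205 WT array was the highest of its group for 31 of the 36 cell cycle genes (27.7% of all genes) and had a summed signal of 5 33D1 markers of 3233, against 901.7 and 696.2 on the other DEC205 WT arrays. Its 6 neutrophil markers summed to 2992, against 927.9 and 1058 on those arrays, although Elane (14.9 against 100.6 and 123.1) and Mpo (95.1 against 117.6 and 253.2) ran lower. The third 33D1 Flt3L array had a summed signal of 6 DEC205 markers of 4276, against 908.9 and 895.8 on the other 33D1 Flt3L arrays. Irf8 was the largest part of it (2407 against 341.2 and 371.3), and Ly75, the gene of DEC205, was not raised (124.7 against 197.0 and 124.0). The third B cell array was the highest of its group for 34 of the 36 genes (42.6% of all genes). Its 5 plasma cell markers summed to 17323, against 7891 and 7962, mostly through a Jchain signal of 8362 against 337.3 and 321.8. Prdm1 and Xbp1 were also highest there, but Sdc1 (417.6 against 456.6 and 306.9) and Tnfrsf17 (33.0 against 25.3 and 82.0) were not. Results that rest on these arrays are given with and without them.

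WT DCs of both kinds carried far more cell cycle RNA than lymphocytes. Across 6 DC arrays and 9 lymphocyte arrays, 33 of the 36 genes were higher in DCs and 0 were lower at an adjusted p under 0.05 (limma with Benjamini-Hochberg adjustment over all genes). Of all genes tested, 22.4% were higher and 30.3% were lower. The DC arrays did not overlap the lymphocyte arrays for 23 of the 36, all higher in DCs, against 7.78% of all genes. Log2 differences are those of log2(signal + 48.6), which understates the change of dim genes. The median log2 difference was 1.65 for the 36 genes, and -0.12 for all genes. It was 2.23 for mitosis genes (19 of 19 higher) and 1.04 for replication genes (12 of 14 higher). These medians were not tested against each other. Genes entered the test if they exceeded a signal of 156.3 on at least 3 arrays, and 7 of the 36 did so only through DC arrays (Tyms, Bub1, Bub1b, Kif20a, Cdc6, Ccne2 and Chek1), so that for them a difference was built in. Of the 29 that passed on lymphocyte arrays as well, 26 were higher and 18 did not overlap, with a median log2 difference of 1.47. Among these, the median was 2.17 for mitosis genes (16 of 16 higher) and 0.87 for replication genes (10 of 12 higher).

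**Figure D1:**
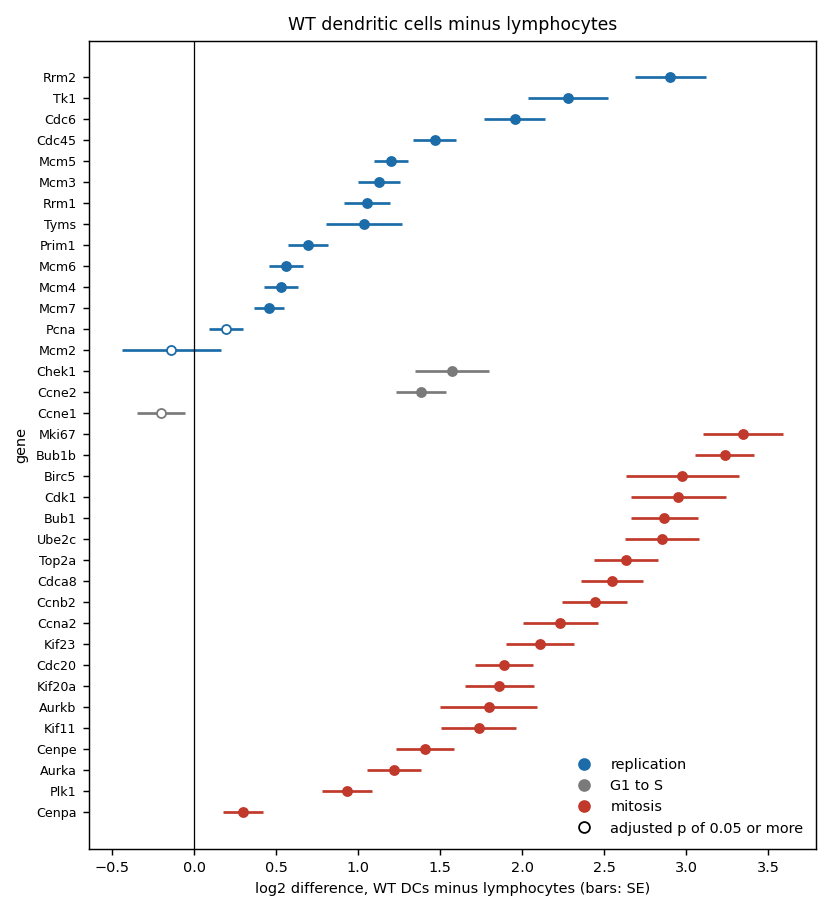
Log2 difference, WT dendritic cells minus lymphocytes, of each of the 36 genes (horizontal axis), with its SE, in order of size within replication, G1 to S and mitosis genes. Filled points have an adjusted p under 0.05: 33 of the 36 do, all to the right of 0, and the open points are Pcna, Mcm2 and Ccne1.

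Among replication genes, the enzymes that make nucleotides and the factors that license and fire origins had median log2 differences of 1.67 (4 genes, Tyms included) and 1.71 (2 genes, Cdc6 included), against 0.54 for the 6 helicase subunits. Rrm2, the small subunit of ribonucleotide reductase, had signals of 2471 to 4877 (median 4476) in WT DCs, against 281.7 to 1313 (median 383.3) in lymphocytes. Every DC array lay above every lymphocyte array, and the log2 difference was 2.90 ± 0.21 (SE, adjusted p = 1.13e-10). Its partner Rrm1, the large subunit, differed by 1.05 ± 0.14 (SE, adjusted p = 1.13e-06), and its arrays overlapped. Tk1, the thymidine kinase that salvages thymidine during S phase, differed by 2.28 ± 0.24 (SE, adjusted p = 4.88e-08). Tyms, thymidylate synthase, had 67.4 to 168.9 (median 113.5) in WT DCs, against 14.2 to 76.5 (median 27.6) in lymphocytes. It exceeded 156.3 on no lymphocyte array, and the groups overlapped. Its call was lost in 1 of 27 settings, the one with no filter on low signals. There a brighter Tyms probe set, which the filter had removed, was read instead. The log2 difference was then 0.10 (limma, adjusted p = 0.665), so the Tyms difference depends on the filter.

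Cdc6, which loads the helicase at origins, had 360.0 to 608.8 (median 404.1) signal units in WT DCs, against 19.8 to 207.4 (median 70.2) in lymphocytes. The DC arrays were all higher, with a log2 difference of 1.95 ± 0.18 (SE, adjusted p = 6.97e-09), and 1 of the 9 lymphocyte arrays exceeded the filter. Cdc6 thus entered the test only through DC arrays, and a difference was built in. Cdc45, a part of the active helicase, had 385.2 to 673.0 (median 509.5) in WT DCs, against 86.1 to 245.7 (median 157.0) in lymphocytes. Its groups did not overlap either (1.47 ± 0.13, SE, adjusted p = 3.37e-09). Prim1, the primase subunit that lays the first RNA primers, differed by 0.69 ± 0.12 (SE, adjusted p = 4.66e-05).

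The helicase subunits themselves differed less. Mcm5 had 4053 to 6156 (median 4988) in WT DCs, against 1614 to 3515 (median 1956) in lymphocytes, so that the DC arrays were all higher (1.20 ± 0.10, SE, adjusted p = 1.22e-09). Mcm3 differed by 1.13 without overlap, and Mcm6, Mcm4 and Mcm7 by 0.56, 0.53 and 0.45 with overlap. Mcm7, for example, had 5380.5 to 9004 (median 8533) in WT DCs and 4908 to 6649.5 (median 5393) in lymphocytes, and the groups overlapped. Pcna had 10115 to 15401 (median 11337) in WT DCs and 8289 to 13609 (median 9894) in lymphocytes, and did not pass the test (0.19 ± 0.10, SE, adjusted p = 0.127). Mcm2 did not pass either (-0.14 ± 0.30, SE, adjusted p = 0.72). Its probe set scattered widely, with 3504, 1352 and 589.3 on the CD4 T cell arrays, and a second Mcm2 probe set was higher in WT DCs by 0.34 ± 0.12 (SE, adjusted p = 0.0192).

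Of the genes grouped as G1 to S, Ccne2 (cyclin E2) and Chek1 (the checkpoint kinase that restrains cells with unfinished replication) were higher in WT DCs. Both passed the filter only through DC arrays, with 1 and 2 lymphocyte arrays above it. A difference was thus built in, and their tests are descriptions here. Ccne2 had 264.0 to 420.2 (median 361.4) in WT DCs, against 67.4 to 185.5 (median 110.4) in lymphocytes, without overlap (1.38 ± 0.15, SE, adjusted p = 7.24e-08). Chek1 had 283.4 to 523.0 (median 434.1) in WT DCs, against 16.9 to 284.6 (median 123.3) in lymphocytes (1.57 ± 0.23, SE, adjusted p = 3.54e-06), and the groups overlapped. Ccne1 (cyclin E1) did not pass the test, at -0.20 ± 0.15 (SE, adjusted p = 0.261), with 240.7 to 559.7 (median 325.9) in WT DCs and 290.8 to 794.3 (median 422.2) in lymphocytes, and a second Ccne1 probe set gave 0.29 ± 0.21 (SE, adjusted p = 0.265).

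The mitotic genes stood furthest apart. Mki67, which coats condensed chromosomes and is the usual marker of proliferation, had signals of 1992 to 4310.1 (median 3542) in WT DCs, against 82.7 to 563.9 (median 301.2) in lymphocytes. Its log2 difference of 3.35 ± 0.24 (SE, adjusted p = 9.44e-11) was the largest fitted for the 36. Top2a, the topoisomerase that untangles sister chromatids, had 1681 to 3478 (median 3051) in WT DCs, against 206.4 to 671.6 (median 345.5) in lymphocytes, again without overlap (2.63 ± 0.19, SE, adjusted p = 1.01e-10).

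Bub1b and Bub1, kinetochore proteins of the spindle checkpoint, exceeded the filter on no lymphocyte array. Bub1b had 416.2 to 1058 (median 812.5) in WT DCs, against 14.3 to 128.6 (median 27.4) in lymphocytes. Bub1 had 352.5 to 760.0 (median 649.4) in WT DCs, against 5.3 to 104.7 (median 36.7) in lymphocytes. Every DC array was above every lymphocyte array for both genes, which is a description here, since the lymphocyte signals are too dim to give the difference a size.

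Cdk1, the kinase that drives cells into mitosis, had 826.4 to 2225 (median 1139) in WT DCs, against 16.4 to 381.2 (median 108.7) in lymphocytes, without overlap (2.95 ± 0.29, SE, adjusted p = 1.27e-08). Its cyclin partners Ccnb2 and Ccna2 differed by 2.44 and 2.23. Ube2c and Cdc20, which work with the anaphase-promoting complex, differed by 2.85 and 1.89. Birc5 (survivin) and Cdca8 (borealin), which belong to the chromosomal passenger complex, differed by 2.98 and 2.55, and their kinase Aurkb by 1.79. All of these differences passed the test without overlap of the arrays.

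Motor proteins of the spindle and midzone were also higher in WT DCs: Kif23 by 2.11, Kif11 by 1.73 and Cenpe by 1.40 on the log2 scale. Kif20a, another kinesin, had 198.9 to 494.2 (median 417.6) in WT DCs, against 16.4 to 145.2 (median 66.4) in lymphocytes, where no array exceeded the filter. Aurka and Plk1, kinases of the spindle poles and of mitotic entry, differed by 1.22 and 0.93. The smallest difference was that of Cenpa, the histone variant of centromeres, at 0.30 ± 0.12 (SE, adjusted p = 0.045). Its call was lost in 17 of 27 settings and turned to -0.10 (adjusted p = 0.638) when all probe sets of a gene were averaged. The other calls, save that of Tyms, held in all 27 settings. Without the third DEC205 WT array, 32 of the 36 genes were higher, against 21.4% of all genes.

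The marker list of blood progenitors (Kit, Cd34, Myb and Gata2, 4 of 4 measured) also differed between these cells. Its summed signal ran from 5724 to 9121 on WT DC arrays, against 724.3 to 4194 on lymphocyte arrays. Kit carried that sum in DCs, with group means of 7333 (33D1) and 4708 (DEC205) in WT DCs, against 41.1 in B cells, 153.3 in CD8 T cells and 88.3 in CD4 T cells. Myb ran the other way, with means of 273.9 and 728.9 in the same DC groups, against 761.2 in B cells, 2558 in CD8 T cells and 1634 in CD4 T cells. The list's part in the difference was not tested. The sums of 7 erythroid markers overlapped, at 733.9 to 1118 on WT DC arrays and 571.8 to 1681 on lymphocyte arrays.

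**Figure D2:**
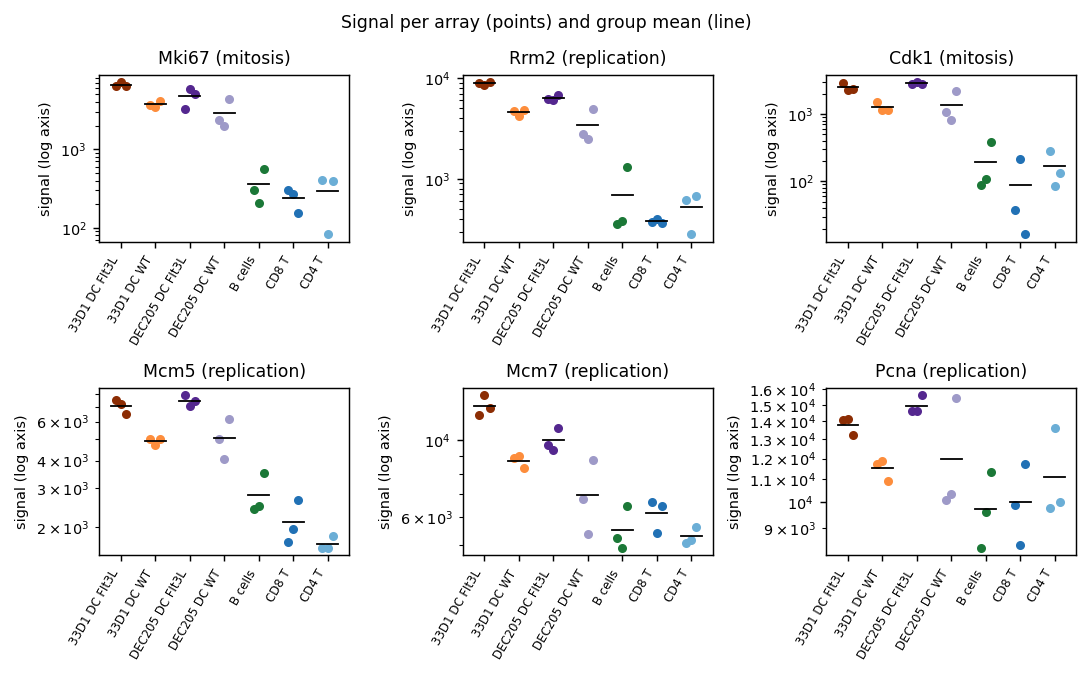
Signal per array (log axis, linear units scaled by the authors to a trimmed mean of 500) of Mki67, Rrm2, Cdk1, Mcm5, Mcm7 and Pcna in the 7 groups, with 1 point per array and a bar at the group mean. The DC groups lie above all lymphocyte arrays for Mki67, Rrm2, Cdk1 and Mcm5, whereas the groups overlap for Mcm7 and Pcna.

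Promoters of the genes were searched for the letters of sites known from S phase and mitosis genes. RefSeq promoter windows of 300 bases (250 before to 50 after the start) in build GRCm38.p6 matched 32 of the 37 genes, with 33 windows, since Mcm7 has a pair of them. E2F factors, which switch on S phase genes, bind letters such as TTTGGCGC, TTTCCCGC, TTTCGCGC and TTTGCCGC. One of these stood on either strand in 5 of 14 replication windows (35.7%), 1 of 17 mitosis windows (5.88%) and 2.26% of all 32851 windows. TTTGAA, the cell cycle homology region read by the complexes that time mitotic genes, stood in 13 of 17 mitosis windows (76.5%), 2 of 14 replication windows (14.3%) and 17.9% of all windows. Its variant TTTAAA, which reads alike on both strands, stood in 6 of 17 mitosis windows (35.3%), 3 of 14 replication windows (21.4%) and 13.2% of all windows. CCAAT, the box bound by NF-Y, stood in 16 of 17 mitosis windows (94.1%), 11 of 14 replication windows (78.6%) and 37.4% of all windows. These matches are descriptions of letters and do not show that a factor binds.

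The windows of Mcm5, Mcm6, Cdk1 and Mki67 are printed to show both arrangements, 5′ to 3′ on the strand of the gene, with every match in capitals. Mcm5 (chr8:75109259-75109558, plus strand) and Mcm6 (chr1:128359656-128359955, minus strand) carry E2F letters, and in each a pair of matches on opposite strands overlaps. Cdk1 (chr10:69352863-69353162, minus strand) and Mki67 (chr7:135716330-135716629, minus strand) carry TTTGAA next to CCAAT boxes read on either strand (ATTGG on the other), and Cdk1 also holds the only E2F letters among the 17 mitosis windows.
Mcm5: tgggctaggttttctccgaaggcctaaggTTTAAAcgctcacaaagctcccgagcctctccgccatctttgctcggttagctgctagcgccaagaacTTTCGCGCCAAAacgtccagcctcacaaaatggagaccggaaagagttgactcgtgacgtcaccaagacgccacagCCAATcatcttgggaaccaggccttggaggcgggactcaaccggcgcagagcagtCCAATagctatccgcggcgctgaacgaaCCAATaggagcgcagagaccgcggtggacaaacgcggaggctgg
Mcm6: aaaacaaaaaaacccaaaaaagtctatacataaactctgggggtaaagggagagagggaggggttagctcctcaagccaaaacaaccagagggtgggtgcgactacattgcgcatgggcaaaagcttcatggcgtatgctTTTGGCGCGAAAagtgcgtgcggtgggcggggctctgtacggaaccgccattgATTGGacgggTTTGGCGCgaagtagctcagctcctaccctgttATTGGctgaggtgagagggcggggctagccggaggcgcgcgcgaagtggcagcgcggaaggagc
Cdk1: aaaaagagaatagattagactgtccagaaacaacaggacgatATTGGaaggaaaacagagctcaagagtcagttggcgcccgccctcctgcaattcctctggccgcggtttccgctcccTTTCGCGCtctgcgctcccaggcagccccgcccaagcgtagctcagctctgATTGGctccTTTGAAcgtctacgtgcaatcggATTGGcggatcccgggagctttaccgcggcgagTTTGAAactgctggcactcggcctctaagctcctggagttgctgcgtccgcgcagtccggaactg
Mki67: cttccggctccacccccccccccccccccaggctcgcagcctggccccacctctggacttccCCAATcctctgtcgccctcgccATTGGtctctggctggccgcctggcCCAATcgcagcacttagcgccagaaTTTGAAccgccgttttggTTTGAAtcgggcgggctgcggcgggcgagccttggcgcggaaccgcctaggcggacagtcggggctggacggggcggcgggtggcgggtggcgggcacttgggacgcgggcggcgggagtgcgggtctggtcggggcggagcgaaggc

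Across the 7 groups, DCs of Flt3L mice stood highest for nearly every gene. The group with the highest mean was 33D1 DCs of Flt3L mice for 27 of the 36 genes (9.76% of all genes) and DEC205 DCs of Flt3L mice for 8 (12.1% of all genes). The exception was Mcm2, highest in CD8 T cells. On the second Mcm2 probe set the highest mean was instead that of DEC205 DCs of Flt3L mice, at 2805, and CD8 T cells had 1308. The lowest mean was that of CD8 T cells for 18 genes (12.3% of all genes), CD4 T cells for 11 (10.9%), B cells for 5 (14.2%) and DEC205 WT DCs for 2 (16.2%). On the scale of log2(signal + 48.6), the median of the mitosis genes per array averaged 11.29 ± 0.18 in 33D1 Flt3L DCs, 10.48 ± 0.09 in 33D1 WT DCs, 10.95 ± 0.09 in DEC205 Flt3L DCs and 10.26 ± 0.53 in DEC205 WT DCs (SD, n = 3 each). In lymphocytes it averaged 8.08 ± 0.58 in B cells, while CD8 T cells had 7.94 ± 0.26 and CD4 T cells 8.16 ± 0.80. Neighbouring groups differed by less than their spread among the 3 lymphocyte groups and between the WT DC groups. The median of the replication genes averaged 11.71 ± 0.15, 11.26 ± 0.09, 11.63 ± 0.19 and 10.93 ± 0.24 in the same 4 DC groups, and 10.21 ± 0.39, 10.09 ± 0.12 and 9.72 ± 0.16 in B, CD8 T and CD4 T cells.

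**Figure D3:**
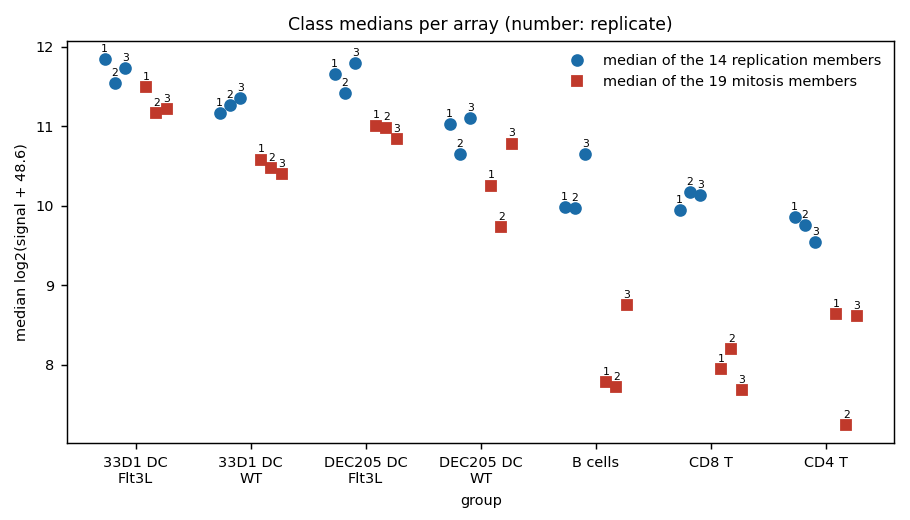
Median log2(signal + 48.6) over the replication genes and over the mitosis genes on each of the 21 arrays, by group, with the replicate number beside each point. Mitosis medians of all DC arrays lie above those of all lymphocyte arrays, and the third DEC205 WT array lies above the others of its group.

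In mice injected with the Flt3L melanoma, 33D1 DCs had higher signals of most cell cycle genes than in WT mice, although few differences passed the test over all genes. Of the 36 genes, 35 had a difference above 0, against 50.4% of all genes. The arrays did not overlap for 32, all higher in Flt3L mice, against 10.5% of all genes, and 25 had an unadjusted p under 0.05 in that direction, against 6.42% of all genes. At an adjusted p under 0.05, 2 were higher and 0 lower (limma), against 0.851% and 0.158% of all genes. The median difference was 0.82 for mitosis genes and 0.51 for replication genes.

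The 2 called genes were Cenpa and Plk1. Cenpa had 2839.6, 2263 and 2172 in 33D1 DCs of Flt3L mice, against 1367, 1416 and 1301 in 33D1 DCs of WT mice (0.80 ± 0.19, SE, adjusted p = 0.0407). Plk1 had 1407, 1295 and 1203 in Flt3L mice, against 762.9, 444.2 and 695.3 in WT mice (1.01 ± 0.24, SE, adjusted p = 0.0423). Every Flt3L array was above every WT array for both genes, but a second Cenpa probe set gave 0.57 ± 0.42 (SE, adjusted p = 0.735). Neither call was kept when any 1 of the 6 arrays was left out, whereas a fit to these groups alone called 23 of the 36 genes higher, against 1.65% of all genes.

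Other genes showed differences of the same size without passing. Mki67 had 6392, 7156 and 6340 in Flt3L mice, against 3634, 3450.1 and 4086 in WT mice (0.83 ± 0.38, SE, adjusted p = 0.442). Rrm2 had 8954, 8606 and 9108 in Flt3L mice, against 4734, 4218 and 4862 in WT mice (0.94 ± 0.33, SE, adjusted p = 0.234), and Top2a had 6392, 5090.3 and 5609 in Flt3L mice, against 3139, 2962 and 3478 in WT mice (0.82 ± 0.30, SE, adjusted p = 0.253). The arrays of the groups did not overlap for any of the 3 genes. Rrm1 had 3284, 2749 and 3298 in Flt3L mice and 1940, 1459 and 1734 in WT mice (0.85 ± 0.22, SE, adjusted p = 0.0637). Mcm7 had 11835, 13432 and 12400.2 in Flt3L mice and 8884, 9004 and 8284 in WT mice (0.52 ± 0.14, SE, adjusted p = 0.0872). Mcm5 had 7538, 7248 and 6504 in Flt3L mice and 5021, 4709 and 4988 in WT mice (0.53 ± 0.16, SE, adjusted p = 0.136). These subunits of the reductase and the helicase were also higher on each Flt3L array than on each WT array.

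Pcna had 14053, 14137 and 13210.1 in 33D1 DCs of Flt3L mice and 11738, 11896 and 10937 in those of WT mice, a smaller step without overlap (0.26). Tyms had 178.9, 184.9 and 197.4 in Flt3L mice and 168.9, 67.4 and 162.8 in WT mice, close to the filter. Mcm2 was the 1 gene of the 36 with a difference below 0 (-0.19 ± 0.46, SE), at 2004, 1698 and 1437 in Flt3L mice and 1441, 2227 and 2284 in WT mice. Its second probe set ran the other way without overlap and did not pass, with 2672, 2191 and 2439 in Flt3L mice and 1944, 1821 and 1533 in WT mice (0.45 ± 0.18, SE, adjusted p = 0.338).

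The other helicase subunits of 33D1 DCs had small differences. Mcm6 had 4218, 3298 and 3393 in Flt3L mice and 2864, 2622 and 2897 in WT mice (0.37), without overlap. Mcm3 had 4546, 3154 and 3926 in Flt3L mice and 3319.8, 2768 and 2993 in WT mice (0.34). Mcm4 had 4025, 3397 and 3239 in Flt3L mice and 2607, 2693 and 3381 in WT mice (0.30). The arrays of Mcm3 and Mcm4 overlapped, and none of the 3 passed the test.

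DEC205 DCs of Flt3L mice differed from those of WT mice in the same direction for 36 of 36 genes, against 48.9% of all genes. The arrays did not overlap for 24, all higher in Flt3L mice, against 10.8% of all genes, and 24 had an unadjusted p under 0.05 in that direction, against 6.80%. At an adjusted p under 0.05, 5 genes were higher and 0 lower (limma), against 1.22% and 0.888% of all genes. The median difference was 0.74 for mitosis genes and 0.59 for replication genes.

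Of the 5, 3 were replication genes. Rrm1 had 2811, 2393 and 2720 in DEC205 DCs of Flt3L mice, against 1270.5, 803.7 and 1908 in those of WT mice (1.04 ± 0.22, SE, adjusted p = 0.0125). Mcm6 had 4884, 4988 and 4944 in Flt3L mice, against 2865, 2636 and 3368 in WT mice (0.74 ± 0.16, SE, adjusted p = 0.0147), and Mcm7 had 9706, 9371 and 10852 in Flt3L mice, against 6756, 5380.5 and 8782 in WT mice (0.54 ± 0.14, SE, adjusted p = 0.0481). The highest WT array stayed below the lowest Flt3L array for all 3. Ccne1 had 630.6, 486.2 and 660.2 in Flt3L mice, against 324.8, 240.7 and 310.1 in WT mice (0.91 ± 0.23, SE, adjusted p = 0.0374). Cenpa had 2192, 1978 and 1789 in Flt3L mice, against 1174, 801.0 and 1716 in WT mice (0.73 ± 0.19, SE, adjusted p = 0.045). The WT value of Cenpa was lowest on the second array. Second probe sets gave 0.42 ± 0.32 for Ccne1 (SE, adjusted p = 0.722) and 0.51 ± 0.18 for Mcm6 (SE, adjusted p = 0.225). Cenpa's difference ran from 0.19 to 0.99 over 18 settings, with an adjusted p of up to 0.863. Its call was lost in 12 of them.

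These calls turned on single arrays. Leaving out the second DEC205 WT array, the lowest of its group for 30 of the 36 genes (33.7% of all genes), left 0 calls. Leaving out any 1 of the Flt3L arrays or the first WT array left 1. Shares of all genes were not computed for these settings. Without the third WT array 9 genes were higher, against 1.14% of all genes. Without that array, the third 33D1 Flt3L array and the third B cell array together, a setting chosen after the data were seen, 15 were higher in DEC205 DCs and 4 in 33D1 DCs, against 1.26% and 0.662% of all genes.

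In DEC205 DCs, Mki67 had 3293, 5908 and 5035 in Flt3L mice and 2381, 1992 and 4310.1 in WT mice (0.74 ± 0.38, SE, adjusted p = 0.451), and the third WT array lay among the Flt3L arrays. Rrm2 had 6262, 6066 and 6746 in Flt3L mice and 2814, 2471 and 4877 in WT mice (0.96 ± 0.33, SE, adjusted p = 0.174). Cdk1 had 2794, 2967 and 2755 in Flt3L mice and 1083, 826.4 and 2225 in WT mice (1.14 ± 0.45, SE, adjusted p = 0.261). Neither Rrm2 nor Cdk1 overlapped, and both missed the threshold. Top2a had 3833, 4329 and 4009 in Flt3L mice and 1911, 1681 and 3251 in WT mice (0.87), and Tyms had 57.2, 193.3 and 179.5 in Flt3L mice and 117.2, 109.7 and 92.0 in WT mice (0.22). Top2a was higher on every Flt3L array, and Tyms overlapped.

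Among the remaining helicase subunits of DEC205 DCs, Mcm5 had 7887, 7065 and 7475 in Flt3L mice and 4989, 4053 and 6156 in WT mice (0.58). Mcm3 had 4347, 3836 and 4175 in Flt3L mice and 2819, 2002 and 2902 in WT mice (0.69), and Mcm4 had 3592, 3032 and 3492 in Flt3L mice and 2311, 1935 and 2446 in WT mice (0.59). The arrays of these 3 subunits did not overlap. Mcm2, at 1698, 2074 and 3533 in Flt3L mice and 1794, 1258 and 1536 in WT mice (0.60), did overlap, whereas its second probe set was higher in Flt3L mice (0.90 ± 0.18, SE, adjusted p = 0.0134). Pcna differed by 0.35, with 14618, 14604 and 15593 in Flt3L mice and 10115, 10370.3 and 15401 in WT mice.

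**Figure D4:**
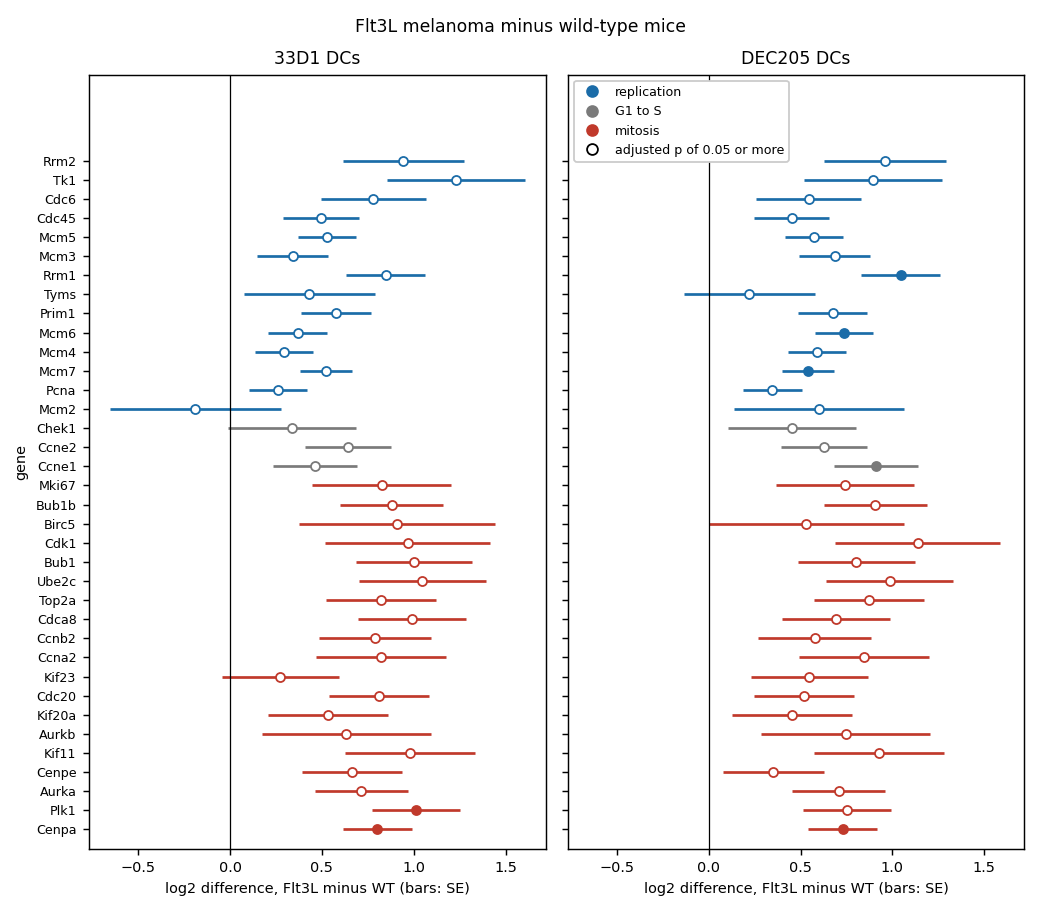
Log2 difference, Flt3L melanoma mice minus WT mice, of each of the 36 genes with its SE, in 33D1 DCs (left) and DEC205 DCs (right). All points but that of Mcm2 in 33D1 DCs lie to the right of 0, and the filled points, with an adjusted p under 0.05, number 2 on the left and 5 on the right.

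Whether the response to the Flt3L melanoma differed between the DC kinds was tested directly. Of the 36 genes, 0 were called, and 0 had an unadjusted p under 0.05 (limma), against 0.0903% called higher and 0.0151% called lower of all genes, and 2.88% and 1.90% at an unadjusted p under 0.05. The differences between the responses ran from -0.79 (Mcm2) to 0.37 (Birc5), with 18 above and 18 below 0.

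Several marker sums moved with the Flt3L melanoma. The 4 plasmacytoid DC markers summed to 5737 to 7031 in 33D1 DCs of Flt3L mice, against 3677 to 4849 in those of WT mice, and to 1874 to 2345 in DEC205 DCs of Flt3L mice, against 1533 to 1842 in those of WT mice. In DEC205 DCs the rise was mostly Bst2, with means of 1260 in Flt3L mice against 798.3 in WT mice, and Tcf4 had 682.3 against 646.0. Siglech (65.8 in Flt3L mice against 89.5 in WT mice) and Spib (147.7 against 157.8) ran the other way there. Sums of the 4 progenitor markers, mostly Kit signal, ran lower, at 4707 to 7151 in Flt3L mice against 7456 to 9121 in WT mice (33D1 DCs), and 4587 to 5368 in Flt3L mice against 5724 to 6066 in WT mice (DEC205 DCs). Kit averaged 5291 in Flt3L mice against 7333 in WT mice (33D1 DCs), and 3898 in Flt3L mice against 4708 in WT mice (DEC205 DCs), while Gata2 ran the other way, at 398.3 in Flt3L mice against 379.2 in WT mice (33D1 DCs) and 398.8 in Flt3L mice against 332.4 in WT mice (DEC205 DCs). The 5 macrophage markers were lower too, at 3479 to 4158 in Flt3L mice against 4516 to 5049 in WT mice (33D1 DCs), and 603.7 to 738.3 in Flt3L mice against 1121 to 2432 in WT mice (DEC205 DCs). In 33D1 DCs that sum was mostly Adgre1 signal, with means of 3504 in Flt3L mice against 4235 in WT mice. The 4 B cell markers summed to 1804 to 1972 in Flt3L mice against 2239 to 2481 in WT mice (33D1 DCs), and to 555.3 to 1062 in Flt3L mice against 2384 to 2633 in WT mice (DEC205 DCs). In DEC205 DCs the fall was mostly that of Ms4a1, with means of 644.4 in Flt3L mice against 2120 in WT mice, while Cd79a had 78.4 against 84.5. The 7 erythroid markers were lower in 33D1 DCs, at 447.9 to 833.2 in Flt3L mice against 967.5 to 1107 in WT mice, and overlapped in DEC205 DCs. Their part in the differences was not tested. The 6 melanoma markers overlapped, at 789.2 to 1033 in 33D1 DCs of Flt3L mice and 852.5 to 1177 in those of WT mice, and at 760.2 to 973.6 in DEC205 DCs of Flt3L mice and 761.7 to 1014 in those of WT mice. Of these 6, 4 had a group mean below 156.3 in both kinds of DCs of Flt3L mice.

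Between the DC kinds in WT mice, 0 of the 36 genes differed at an adjusted p under 0.05 (limma), against 11.3% of all genes higher and 11.8% lower in 33D1 DCs. An unadjusted p under 0.05 was reached by 3 genes, all higher in 33D1 DCs, against 15.8% of all genes. The difference was above 0 for 28 of the 36, against 53.7% of all genes, and the arrays did not overlap for 2, against 19.3%. Mcm7 had 8884, 9004 and 8284 in 33D1 WT DCs, against 6756, 5380.5 and 8782 in DEC205 WT DCs (0.35 ± 0.14, SE, adjusted p = 0.0831). Ccne1 had 559.7, 327.1 and 529.4 in 33D1 WT DCs, against 324.8, 240.7 and 310.1 in DEC205 WT DCs (0.59 ± 0.23, SE, adjusted p = 0.0675). Mcm4 had 2607, 2693 and 3381 in 33D1 WT DCs, against 2311, 1935 and 2446 in DEC205 WT DCs (0.37 ± 0.16, SE, adjusted p = 0.108). Arrays overlapped for Mcm7 and not for Ccne1 and Mcm4. The second Ccne1 probe set did overlap, at 364.4, 274.8 and 302.4 in 33D1 WT DCs and 319.6, 245.6 and 310.9 in DEC205 WT DCs (0.09 ± 0.32, SE, adjusted p = 0.905).

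For the mitotic genes the DEC205 WT arrays spread widely. Top2a had 3139, 2962 and 3478 in 33D1 WT DCs, against 1911, 1681 and 3251 in DEC205 WT DCs (0.53 ± 0.30, SE, adjusted p = 0.239), the third DEC205 array lying among the 33D1 arrays. Kif11 differed by 0.68 ± 0.35 (SE, adjusted p = 0.197). Without the third DEC205 WT array, 3 genes were higher in 33D1 DCs (Mcm7, Rrm1 and Aurka), against 9.76% of all genes. Without the second 33D1 WT array 1 was, and the share of all genes was not computed for that setting. Leaving out all 3 arrays that stood apart, a setting chosen after the data were seen, gave 7, against 9.97% of all genes.

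Between the DC kinds in Flt3L mice, few of these genes passed the test. Of the 36, 0 were higher and 1 was lower at an adjusted p under 0.05, against 11.7% and 11.8% of all genes. The arrays did not overlap for 19 genes that were higher in 33D1 DCs, 16 of them mitosis genes, against 21.4% of all genes. They did not overlap for 2 lower ones, Mcm6 and Pcna, against 19.4%. The median difference was 0.41 for mitosis genes and 0.05 for replication genes. With only these groups in the fit, 12 genes were called higher in 33D1 DCs, against 13.0% of all genes.

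Mcm6 was the 1 called gene, with 4218, 3298 and 3393 in 33D1 Flt3L DCs, against 4884, 4988 and 4944 in DEC205 Flt3L DCs (-0.45 ± 0.16, SE, adjusted p = 0.0465). Its call was lost in 12 of 18 settings, among them on leaving out the second or the third 33D1 array or any DEC205 array. Plk1 had 1407, 1295 and 1203 in 33D1 Flt3L DCs, against 737.2, 1170 and 790.8 in DEC205 Flt3L DCs (0.54 ± 0.24, SE, adjusted p = 0.12). Cdca8 had 6065, 6957 and 5906 in 33D1 Flt3L DCs, against 3573, 4264 and 4162 in DEC205 Flt3L DCs (0.65 ± 0.29, SE, adjusted p = 0.121). Both mitotic genes were higher on each 33D1 array without passing the test.

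**Figure D5:**
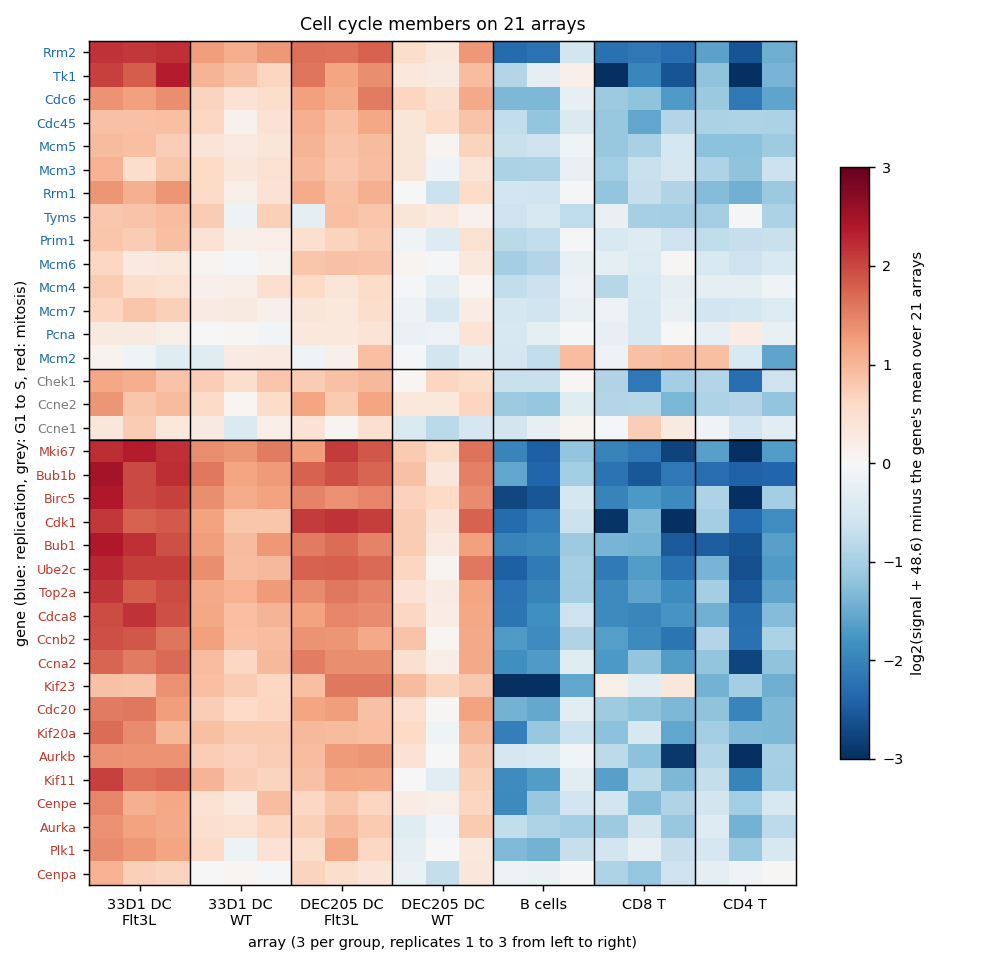
Signals of the 36 genes (rows, by role) on the 21 arrays (columns, by group), each shown as log2(signal + 48.6) minus the mean of that gene over all arrays. Most mitosis genes are above their mean on the 12 DC arrays and below it on the 9 lymphocyte arrays, and DCs of Flt3L mice hold most of the highest values.

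Among lymphocytes, these genes were not called clearly more often than all genes. B cells had 6 of the 36 genes higher and 1 lower than T cells, against 13.1% and 13.9% of all genes. The count of higher genes is near that share, and the count of lower genes is below it. Among the 29 genes above the filter on at least 3 lymphocyte arrays, 4 were higher and 1 was lower. Tk1 had 320.7, 516.2 and 736.5 in B cells, against 17.4, 127.1 and 65.1 in CD8 T cells and 245.3, 35.9 and 211.1 in CD4 T cells (1.94 ± 0.33, SE, adjusted p = 6.57e-05). All B cell arrays were above all T cell arrays, but the CD8 arrays and the second CD4 array lay below 156.3. The size of the Tk1 difference is therefore uncertain. Rrm1, Mcm5 and Aurkb differed by 0.70, 0.55 and 1.31, and of these Rrm1 and Aurkb did not overlap. For Aurkb the second CD4 array and the third CD8 array also lay below 156.3. Chek1 and Bub1b were called too, but Chek1 exceeded the filter on 2 of the 9 lymphocyte arrays and Bub1b on 0. Their signals are too dim to give these differences a size. Without the third B cell array, the one with the high Jchain signal, Tk1 was the 1 gene still higher (1.68, adjusted p = 0.00151), against 11.4% of all genes, and 4 were lower (Kif23, Mcm6, Cenpe and Plk1), against 12.7%. Without the second CD4 or the second CD8 array 2 were lower, and the share of all genes was not computed for these settings.

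Mki67 had 305.6, 209.4 and 563.9 in B cells, 301.2, 268.1 and 156.4 in CD8 T cells and 403.4, 82.7 and 391.7 in CD4 T cells. Rrm2 had 355.5, 383.3 and 1313 in B cells, 376.1, 399.2 and 361.2 in CD8 T cells and 610.5, 281.7 and 669.2 in CD4 T cells. In both genes the third B cell array was the highest of its group. Mcm5 had 2407, 2481 and 3515 in B cells, 1715, 1956 and 2639 in CD8 T cells and 1615, 1614 and 1825 in CD4 T cells, and the groups overlapped.

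Top2a had 263.1, 316.9 and 664.1 in B cells, 340.8, 435.8 and 345.5 in CD8 T cells and 671.6, 206.4 and 440.5 in CD4 T cells. Rrm1 had 846.2, 831.7 and 1237 in B cells, 538.0, 769.0 and 666.6 in CD8 T cells and 494.8, 440.1 and 564.9 in CD4 T cells. Rrm1, unlike Top2a, was higher on each B cell array than on any T cell array. Helicase and clamp transcripts were above the filter in all 3 lymphocyte groups. Mcm7 had 5224, 4908 and 6447 in B cells, 6649.5, 5393 and 6466 in CD8 T cells and 5056, 5170.4 and 5635 in CD4 T cells. Mcm6 had 1306, 1450.3 and 2293 in B cells, 2246, 2028 and 2753 in CD8 T cells and 1972, 1745 and 1945 in CD4 T cells. Pcna had 8289, 9602 and 11357 in B cells, 9894, 8392 and 11730.3 in CD8 T cells and 9759, 13609 and 10003 in CD4 T cells. None of these 3 genes passed the test in either lymphocyte comparison with all arrays.

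Kif23, a kinesin of the spindle midzone, was the 1 gene lower in B cells than in T cells. It had 63.0, 62.1 and 327.8 in B cells, against 1203, 836.5 and 1345 in CD8 T cells and 366.0, 491.7 and 349.6 in CD4 T cells. The log2 difference was -2.11 ± 0.28 for B minus T cells (SE, adjusted p = 2.35e-06) and 1.37 ± 0.32 for CD8 minus CD4 T cells (SE, adjusted p = 0.0151). Its arrays overlapped in neither comparison, but the first and second B cell arrays lay below 156.3. The size of the B minus T difference is therefore uncertain. In a fit over all kept probe sets, 1 other Kif23 probe set gave -1.34 for B minus T cells and 1.53 for CD8 minus CD4 T cells (adjusted p = 0.000126 and 0.00163) and another gave -0.06 and 0.52 (adjusted p = 0.923 and 0.686).

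CD8 T cells had 1 gene higher, Kif23, and 1 lower, Cenpa, than CD4 T cells, against 1.63% of all genes in each direction. Cenpa had 684.5, 578.7 and 858.0 in CD8 T cells, against 1102, 1245 and 1386 in CD4 T cells (-0.79 ± 0.19, SE, adjusted p = 0.0185). The CD8 arrays were all lower. Neither call was kept without the first CD8 or the third CD4 array, and Cenpa's was also lost without the second CD8 array and Kif23's without the third. Without the second CD4 array 2 genes were lower, with no share of all genes computed.

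Other genes of the same machinery were read from lists chosen, like the genes above, with earlier results in view. In WT DCs against lymphocytes, 25 of 44 other replication genes were higher and 6 lower, with a median of 0.35, against 22.4% and 30.3% of all genes. The chromatin remodeller Hells, the recombination factor Rad51ap1, the GINS subunit Gins2 and Uhrf1, which guides maintenance methylation, differed by 1.63, 2.43, 2.27 and 2.53. Of 46 other mitosis genes, 41 were higher and 2 lower, against the same shares, with a median of 1.59. The Cdk subunit Cks1b, the tubulin binder Stmn1, the separase Espl1 and the kinesin Kif22 differed by 3.01, 2.08, 2.09 and 2.05.

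Upstream of these genes the picture was mixed. Of 9 G1 cyclins, kinases and Myc genes, 3 were higher and 2 lower in WT DCs than in lymphocytes, again beside 22.4% and 30.3% of all genes, as for the lists that follow. Mycl and Ccnd1 differed by 5.14 and 4.56, and Ccnd2 and Myc by -2.73 and -1.93. Ccnd2 had 1939.8, 2270.3 and 2095 in 33D1 WT DCs and 280.7, 389.0 and 411.4 in DEC205 WT DCs, and the difference between these DC kinds was 2.41 (adjusted p = 6.84e-10). Ccnd1, another D cyclin, also differed between them, by 1.93, and Mycl by -1.88. Among E2F, Rb and MuvB genes 10 of 16 were higher and 2 lower in WT DCs than in lymphocytes. E2f8, an atypical repressor of the family, differed by 2.79, and E2f1, an activator, by 1.26. Of 10 Cdk inhibitors and antiproliferative genes, 4 were higher and 5 lower. Foxo1 and Klf2, which are known for quiescence in lymphocytes, differed by -2.07 and -2.07, the inhibitor Cdkn2d by -1.50 and its relative Cdkn2c by 1.01.

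Under the Flt3L melanoma, E2f8 was higher in both DC kinds (limma), by 1.40 in 33D1 DCs (adjusted p = 0.0182) and 1.28 in DEC205 DCs (adjusted p = 0.0236). Without the third DEC205 WT and 33D1 Flt3L arrays, the E2f8 call was kept in DEC205 DCs (1.51, adjusted p = 0.0236). In 33D1 DCs it was lost. Of the 46 other mitosis genes, 8 were higher in 33D1 DCs of Flt3L mice and 5 in DEC205 DCs of Flt3L mice, with 0 lower in either, against 0.851% and 1.22% of all genes higher. Anln, which organises the cleavage furrow, was among them in both (1.12 and 0.98). Of the 44 other replication genes, 3 were higher in 33D1 DCs, Pold1, Brca1 and Timeless, and 9 in DEC205 DCs, against the same shares, with Asf1b and Lig1 at 1.18 and 0.89. Hells differed between the DC kinds, being lower in 33D1 DCs (log2 difference -1.22 in Flt3L mice and -1.59 in WT mice), whereas Espl1 was higher in 33D1 DCs by 0.91 in Flt3L mice and 1.21 in WT mice.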

How the data were processed

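Each array measured total RNA (5 ug, labelled as biotinylated cRNA), per the labels' protocols. The deposited intensities are linear probe set signals, and the submitters' processing notes name GCOS and MAS5 for them, with versions not given in the sources used. Each array's 2% trimmed mean was 500, as tested on the values, so a shift shared by most genes is removed. Array medians ran from 121.9 to 204.4, and within-group correlations from 0.949 to 0.979. The number of arrays limits the precision.

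Groups came from sample titles. From 45101 probe sets, 34945 with 1 symbol in the platform annotation were used (64 control probe sets were left out), and 23946 exceeded 156.3, the table median, on at least 3 arrays. The brightest by mean over the 21 arrays stood for its gene, giving 13284 genes. All 36 cell cycle genes passed this filter, 15 of them on all 21 arrays, but 7 exceeded it on fewer than 3 lymphocyte arrays. The 25th percentile of the table, 48.6, was added before taking log2. limma 3.58.1 in R 4.3.3 fitted 7 group means (14 residual degrees of freedom, moderated with a variance trend). All p-values were two-sided, with Benjamini-Hochberg adjustment over all genes of a contrast, called at an adjusted p under 0.05. The procedure was tested on simulated data.

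The genes, lists and tests were chosen with earlier results of these data known. Values on each array are given for up to 4 called genes per role and comparison with the smallest adjusted p, for the 2 with the smallest p where none was called, and for Mki67, Top2a, Rrm1, Rrm2 and other fixed genes. Alternatives varied the offset, filter, scaling, probe set, trend, replicate block, groups fitted and arrays left out. Taken over all groups, same-numbered arrays did not deviate together (median r -0.03 over 63 pairs, from -0.378 to 0.355). This median cannot show whether arrays of particular groups were paired, and the main fit used no pairing.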

Additional observations from a re-analysis of the deposited data

Results flagged for a closer look

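Foxo1, a transcription factor known for quiescence and read here beside the cell cycle genes, was singled out because its response to the Flt3L melanoma differed between the DC kinds by the test of that difference (1.15 on the log2 scale, adjusted p = 0.0397, limma). In 33D1 DCs it had 906.8, 766.8 and 712.1 in Flt3L mice, against 749.6, 945.7 and 701.5 in WT mice, a difference of -0.0022 (adjusted p = 0.999). In DEC205 DCs it had 571.0, 475.8 and 797.8 in Flt3L mice, against 1386, 1370 and 1432 in WT mice, a difference of -1.15 (adjusted p = 0.00024). The adjusted p ran from 0.00838 to 0.522 over the alternatives and passed the threshold in 4 of 24. Groups of 3 arrays are too small to be tested for single outlying arrays.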

How the results depend on the processing

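Counts below are of the 36 cell cycle genes. Where no share of all genes stands beside a count, none was computed for that setting. Whether all genes changed alike there is not known. Of 972 values for the WT DC minus lymphocyte comparison over the alternatives, 952 kept direction and side of the threshold, and 1 reversed, Cenpa at -0.10 (adjusted p = 0.638) with all probe sets averaged; Cenpa's other probe set differs from the chosen one in sign. On leaving out 1 array, 32 to 33 genes stayed higher in WT DCs and the medians ran from 0.98 to 1.13 (replication) and 2.11 to 2.39 (mitosis). The replication median was 0.79 with the table median as offset and 0.81 with all probe sets averaged.

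For Flt3L minus WT, the genes called higher in 33D1 and DEC205 DCs numbered 0 and 3 with an offset of 1, 6 and 8 with the table median as offset, 0 and 2 with no filter, 1 and 0 with median centring, 0 and 2 with no variance trend, 1 and 8 without the third DEC205 WT and 33D1 Flt3L arrays, and 4 and 15 without the third B cell array as well. In 33D1 DCs they numbered 1 with all probe sets averaged and 23 with only the compared groups, the latter against 1.65% of all genes. Shares of all genes called higher in 33D1 and DEC205 DCs were 0.527% and 1.01% without the 2 arrays. They were 0.662% and 1.26% without the third B cell array as well. Leaving out 1 array gave 0 to 0 in 33D1 DCs and 0 to 9 in DEC205 DCs. For 33D1 minus DEC205 in WT mice, genes called higher numbered 1 with quantile scaling, 3 without those 2 arrays (9.50% of all genes), 7 without all 3 (9.97%), and 0 to 3 on leaving out 1 array. In Flt3L mice, genes called higher numbered 1 with the table median as offset, 1 with quantile scaling, 3 with all probe sets averaged, 12 with only the compared groups (13.0% of all genes) and 1 without the 3 arrays (10.3%). Mcm6 was the 1 called lower there, and 0 were with an offset of 1, no filter, quantile scaling, median centring, all probe sets averaged, no trend or without the 2 arrays (0 to 1 on leaving out 1 array).

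For B minus T cells, genes called higher numbered 3 with only the compared groups, 3 without the 3 arrays (11.1% of all genes) and 1 to 7 on leaving out 1 array. Genes called lower numbered 2 with quantile scaling, 4 without the 3 arrays (12.1% of all genes) and 1 to 4 on leaving out 1 array. For CD8 minus CD4 T cells, 0 were called higher with an offset of 1 and 0 lower with median centring, all probe sets averaged or only the compared groups (0 to 1 higher and 0 to 2 lower on leaving out 1 array). With a replicate block, 2 were called lower for B minus T cells and 7 higher for Flt3L minus WT in DEC205 DCs, and no other count changed. The causes of these changes were not tested, and the array sets left out together with the B cell array were chosen after the data were seen. Signals under 156.3 were not counted as detected, and differences within the spread of 3 pools were not detectable.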
